A study of Mus musculus with 20 samples.

Results

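Acetyl-CoA carboxylases make malonyl-CoA, and 5 genes around that step were followed in mouse liver: the carboxylases Acaca and Acacb, their protein partners Mid1ip1 and Thrsp, and Mlycd, whose enzyme breaks malonyl-CoA down again. They were taken as every probe set whose platform annotation gives exactly 1 gene symbol and that symbol is 1 of the 5. This gave 9 probe sets of 34945, and 5 genes of 18193. The 20 arrays, Affymetrix 3' expression arrays with 1 per mouse, carried RNA from the livers of male C57BL/6J animals aged 8 weeks after a 16 h fast. The HFD group was 10 mice fed for 4 weeks on a diet with 45 kcal% of fat. The MSXH group was 10 mice fed the same diet, for as long, with 0.02% of an extract of maple syrup that the labels call MSXH. Both groups therefore ate the high-fat diet, and none of the 20 arrays came from a low-fat group. The genes belong to 1 pathway step, and the step was picked on the difference between these groups, above all that of Mid1ip1. The differences between MSXH and HFD are therefore given for them as a description, with no test.

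Malonyl-CoA is both the building block for new fatty acids and an inhibitor of carnitine palmitoyltransferase 1, which brings fatty acids into mitochondria for oxidation. The enzyme encoded by Acaca is cytosolic and feeds fatty acid synthesis, while that encoded by Acacb sits at the outer mitochondrial membrane, where its malonyl-CoA restrains oxidation. Both carboxylases carry biotin, are switched off when AMP-activated protein kinase (AMPK) phosphorylates them, and gain activity when they assemble into filaments. MIG12, the product of Mid1ip1, promotes that assembly, and Spot 14, the product of Thrsp, is its relative and can pair with it. In liver, the genes of the carboxylases and of these partners are known as targets of insulin, carbohydrate and thyroid hormone signalling, which fasting lowers.

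The deposited values are probe set levels on a log scale, from 5.17 to 15.01, with array medians between 6.5216 and 6.5226. Their spread between arrays was strongly compressed: the median gene had an SD of 1.21e-05 over the 20 mice. A difference on this scale was therefore not read as a fold of RNA. A standardized difference, the MSXH mean minus the HFD mean over the pooled SD within diets, is given in its place. The hepatocyte markers were in place, with 9 of 9 measured markers above the median of every array. MSXH 4 and MSXH 6 stood apart through skeletal muscle transcripts: 10 of 12 muscle markers were higher on both than on each of the other 18 arrays. The mean muscle level was 8.181 and 7.594 on these arrays, against 6.363 to 6.432 in HFD and 6.369 to 6.451 in the other MSXH mice. Of 7 adipocyte markers, 2 were higher on both arrays than on all others, and the mean adipocyte level, 6.745 on both, was at the top of the HFD range of 6.735 to 6.745. Of the brown adipocyte markers 2 of 5 were higher on both arrays than on all others. Their mean level was 7.581 on MSXH 4 and 7.523 on MSXH 6, against at most 7.495 in HFD and 7.486 in the other MSXH mice. Of the macrophage, lymphocyte, endothelial and stellate cell markers, 0 of 8, 0 of 7, 0 of 6 and 1 of 6 were. The mean stellate cell level was 7.082 on MSXH 4 and 7.075 on MSXH 6, against at most 7.078 in HFD and 7.077 in the other MSXH mice. In bulk liver, fewer cells of a type and less RNA per cell cannot be told apart. Differences of the 5 genes, medians of gene lists and relations that passed are given with and without these 2 arrays. Of the single genes named from the lists, only some are given both ways.

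Mid1ip1 (gene ID 68041, chromosome X) was higher in MSXH, with little overlap between the diets. Its 1 probe set ran in HFD from 6.743358 in HFD 10 over a median of 6.745009 to 6.74558 in HFD 7. In MSXH it ran from 6.745208 in MSXH 5 over a median of 6.746168 to 6.746591 in MSXH 7. Thus 9 of the 10 MSXH mice lay above every HFD mouse, and 8 of the 10 HFD mice lay below every MSXH mouse. Only MSXH 5 fell within the HFD range. The means were 6.7447263 ± 0.000686 (SD, n = 10) and 6.7460804 ± 0.000469 (SD, n = 10), a standardized difference of 2.31, and of the 100 possible pairs of 1 mouse from each diet the MSXH mouse was higher in 98. These values led to the choice of the gene. Among all 18193 genes, 7 (0.0385%) had a standardized difference at least as high in MSXH, and 5 (0.0275%) were higher in MSXH in 98 or more pairs. Genes lower in MSXH are not in these counts, and the lowest standardized difference of any gene was -2.76. For Mid1ip1 the difference was 2.14 without MSXH 4 and 6, which ranked 3 and 6 of the 20 mice for this gene. Quantile normalization gave 2.01 and subtracting each array's own median (centring) gave 1.97, and it was from 2.2 to 2.58 when any 1 mouse was left out.

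The upstream sequences of Mid1ip1 and Thrsp are printed because the genes encode related proteins and yet varied differently between diets and between mice. That of Acacb is printed because its level was related to that of Insig2 and, inversely, to those of Srebf1, Scd1 and Mlxipl, as given below. Each line holds the 250 bases before the transcription start in RefSeq on GRCm38.p6, written 5′ to 3′ along the gene. Capitals mark matches, on either strand, to 6 motifs: the CCAAT box, the GC box with the letters GGGCGG, the E-box CACGTG that also carbohydrate and clock factors use, the sterol element TCACNCCAC, the nuclear receptor motif AGGTCA, and TATAAA as TATA box. No match overlapped a match to a different motif.
Mid1ip1, chrX:10717115-10717364, plus strand: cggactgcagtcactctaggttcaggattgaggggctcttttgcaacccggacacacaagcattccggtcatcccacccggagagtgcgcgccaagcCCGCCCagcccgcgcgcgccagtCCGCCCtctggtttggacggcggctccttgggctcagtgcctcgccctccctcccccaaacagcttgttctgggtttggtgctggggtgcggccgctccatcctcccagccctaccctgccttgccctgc
Thrsp, chr7:97417551-97417800, minus strand: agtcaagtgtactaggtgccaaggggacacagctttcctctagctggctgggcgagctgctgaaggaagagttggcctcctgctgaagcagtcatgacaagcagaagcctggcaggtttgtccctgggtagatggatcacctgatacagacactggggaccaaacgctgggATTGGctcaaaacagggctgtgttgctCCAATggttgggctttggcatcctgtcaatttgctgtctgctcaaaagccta
Acacb, chr5:114165268-114165517, plus strand: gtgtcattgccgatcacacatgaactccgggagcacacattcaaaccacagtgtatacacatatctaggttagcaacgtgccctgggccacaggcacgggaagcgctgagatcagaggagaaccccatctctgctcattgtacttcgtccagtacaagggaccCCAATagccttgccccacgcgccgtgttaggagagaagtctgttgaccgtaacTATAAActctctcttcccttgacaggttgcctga
The Mid1ip1 window was 66.8% G and C and held 2 GC boxes (GGGCGG), both on the opposite strand, at 153 and 130 bases before the start. The Thrsp window was 53.6% G and C and held 2 CCAAT boxes, at 79 and 52 bases before the start. The Acacb window held 1 CCAAT box at 87 bases and 1 TATAAA at 34 bases before the start. Of the other 2 genes, Mlycd had 3 CCAAT boxes and Acaca had none of the 6 motifs in this window, which is 1 of the starts a gene can have. CACGTG, the sterol element TCACNCCAC and the receptor motif AGGTCA were absent from all 5 windows. Among all 32851 windows of this length, 33.8% held CCAAT, 32.7% GGGCGG, 12.4% TATAAA, 14.0% AGGTCA, 6.02% CACGTG and 1.05% TCACNCCAC. These are matches of letters and do not show that a factor binds.

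Thrsp (gene ID 21835, chromosome 7), the relative of Mid1ip1, varied widely between mice and hardly differed between the diets. The probe set with the highest mean (1424737_at) ran in HFD from 7.907069 in HFD 3 over a median of 8.027789 to 8.208402 in HFD 2. In MSXH it ran from 7.951092 in MSXH 8 over a median of 8.04172 to 8.116504 in MSXH 2. The MSXH range lay wholly inside that of HFD, with HFD 3 and HFD 2 at its ends. The HFD mean was 8.0413273 ± 0.0781 (SD, n = 10) and the MSXH mean 8.0399492 ± 0.0529 (SD, n = 10), a standardized difference of -0.0207, and the MSXH mouse was higher in 52 of 100 pairs. It was -0.0167 without MSXH 4 and 6, and leaving out 1 mouse took it from -0.274 (without HFD 3) to 0.32 (without HFD 2), so its sign depended on single mice. The SD of Thrsp over the 20 mice exceeded that of 99.8% of all genes, where Mid1ip1 stood at 96.7%. A further Thrsp probe set (1422973_a_at) had a standardized difference of -0.102 (-0.0611 without MSXH 4 and 6, and -0.312 to 0.28 without 1 mouse), with HFD 3 and HFD 2 again at the ends. The last Thrsp probe set (1444166_at) was at 0.0664 and had an SD of only 4.91e-06. That sign turned without MSXH 4 and 6 (-0.0819) and under both scalings (-0.751 and -0.667).

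Acaca (gene ID 107476, chromosome 11), the cytosolic carboxylase of fatty acid synthesis, overlapped broadly between the diets. Its probe set 1434185_at ran in HFD from 7.828726 in HFD 2 over a median of 7.828783 to 7.828836 in HFD 6. In MSXH it ran from 7.828742 in MSXH 10 over a median of 7.828805 to 7.828931 in MSXH 6, and 3 MSXH mice lay above every HFD mouse. The standardized difference was 0.783, and the MSXH mouse was higher in 68 of 100 pairs. The highest of all 20 mice was MSXH 6, 1 of the 2 with muscle transcripts, and the difference was 0.537 without both. It turned to -0.406 after quantile normalization and -0.54 after array centring, but not when these scalings were applied without MSXH 4 and 6 (0.343 and 0.33). The other probe set (1427595_at) lay under every array median and stood at 0.502, at 0.372 without MSXH 4 and 6, and at -0.841 and -0.64 under the 2 scalings. It did not follow the first across mice, as given below.

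Acacb (gene ID 100705, chromosome 5), the carboxylase at the mitochondrial surface, did not separate the diets. Its probe set 1427052_at ran in HFD from 7.086448 in HFD 3 over a median of 7.102522 to 7.110111 in HFD 4. In MSXH it ran from 7.090283 in MSXH 9 over a median of 7.099327 to 7.107831 in MSXH 4, inside the HFD range. The means were 7.1004164 ± 0.00717 (SD, n = 10) and 7.0996394 ± 0.00613 (SD, n = 10), a standardized difference of -0.116 with 47 of 100 pairs higher in MSXH. It was -0.325 without MSXH 4 and 6, and leaving out 1 mouse took it from -0.397 to 0.0469. The SD of Acacb over all mice exceeded that of 99.0% of genes. The second probe set (1445754_at), under every array median, stood at -0.658, with 24 of 100 pairs higher in MSXH, and at -0.637 without MSXH 4 and 6.

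Mlycd (gene ID 56690, chromosome 8) encodes malonyl-CoA decarboxylase, which turns malonyl-CoA back into acetyl-CoA. Its 1 probe set ran in HFD from 9.154807 in HFD 2 over a median of 9.154898 to 9.154933 in HFD 5. In MSXH it ran from 9.154873 in MSXH 6 over a median of 9.154908 to 9.154962 in MSXH 10. The diets overlapped: 3 HFD mice lay below every MSXH mouse and 1 MSXH mouse lay above every HFD mouse. The standardized difference was 0.611 (62 of 100 pairs) and 0.745 without MSXH 4 and 6. It turned to -0.126 after quantile normalization and -0.566 after array centring. Within HFD, mouse HFD 2 had the highest value for all 3 Thrsp probe sets and for Acaca 1427595_at, and the lowest for Mlycd and for Acaca 1434185_at.

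**Figure D1:**
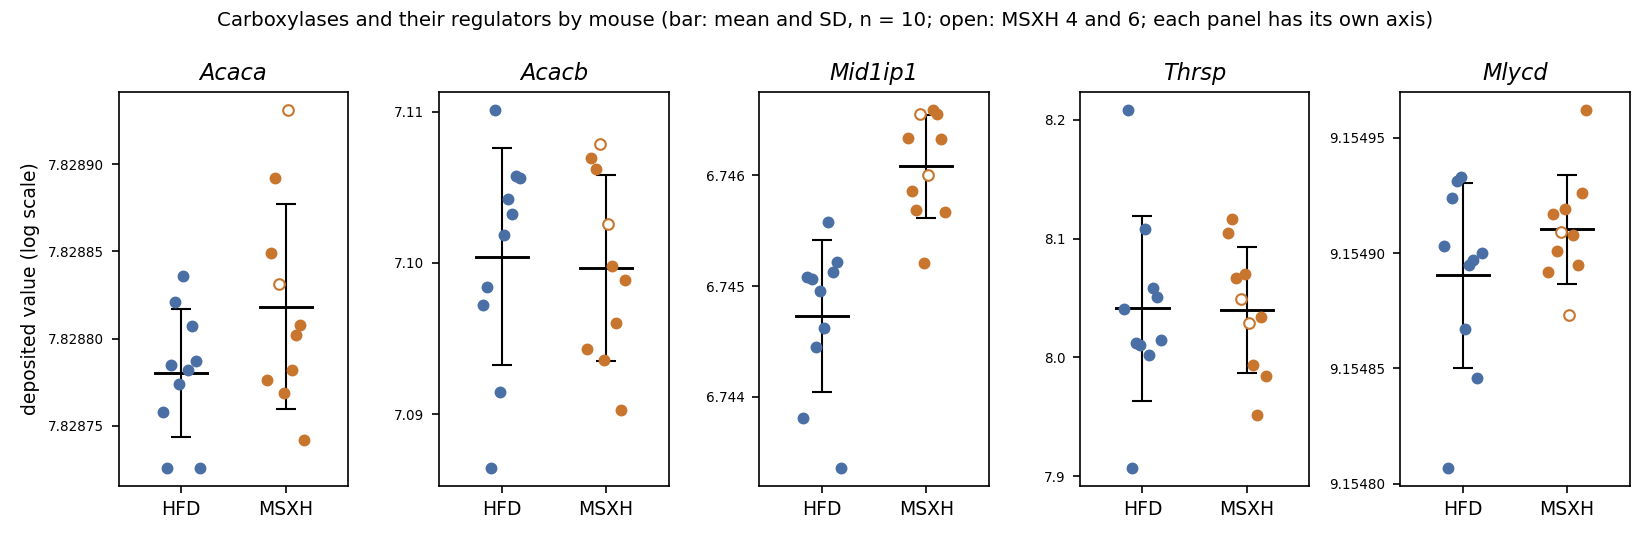
Deposited values of the 5 genes (1 probe set each) by mouse, HFD in blue and MSXH in orange, with group mean and SD (n = 10), and MSXH 4 and 6 as open circles; each panel has its own log-scale axis, so heights cannot be set against each other. Mid1ip1 shows 9 of 10 MSXH mice above every HFD mouse, while the MSXH values of Thrsp and Acacb lie inside the HFD range.

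Set against the whole array, limma called 0 of 18193 genes (0.0%) at an adjusted p of 0.05 and so 0 of the 5, while 10.9% of all genes were at an unadjusted p under 0.05 (6.58% higher and 4.31% lower in MSXH). By the rank sum test 4 genes passed and none was among the 5. At the unadjusted threshold, 1 of the 5 genes was counted, Mid1ip1, and since it was chosen for this difference nothing is read from the count. Of the 5 genes, 3 had a higher mean in MSXH, where 54.7% of all genes did. Their median standardized difference was 0.611, the value of Mlycd, where that of all genes was 0.0669. The median of the 5 was 0.537 without MSXH 4 and 6, -0.126 after quantile normalization and -0.142 after centring. Since the 5 were chosen on this contrast, nothing is read from their median either. Both scalings of all arrays shifted most genes downwards in MSXH: the median of all genes moved to -0.551 after quantile normalization and -0.661 after centring. The highest array median was 6.5226, and 6.52172 without MSXH 4 and 6, so the highest was among these arrays and not spread over the MSXH group. Acaca (-0.406 and -0.54) and Mlycd (-0.126 and -0.566) lay below 0 under these scalings. Their SDs over the 20 mice, 5.14e-05 and 3.35e-05, are small against the span of the array medians. Their scaled values are therefore not ranked against the median gene. Over probe sets, 0 of 34945 (0.0%) passed, and 10.7% had an unadjusted p under 0.05 (6.03% higher, 4.69% lower), among them 1 of the 9, that of Mid1ip1. A higher mean in MSXH was found for 53.0% of all probe sets and for 5 of the 9.

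**Figure D2:**
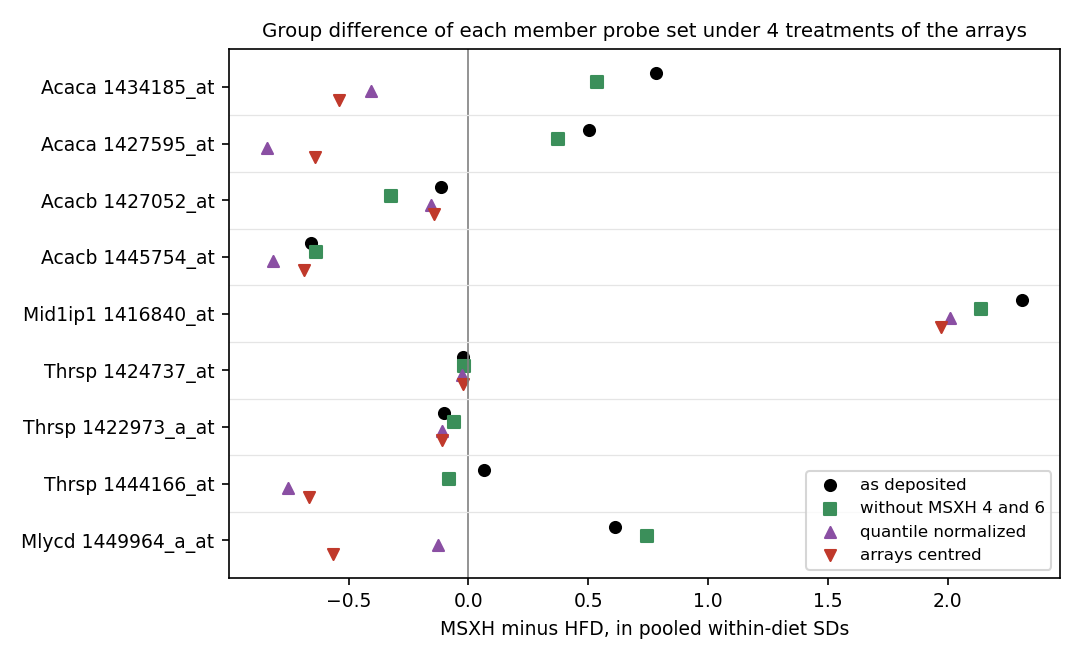
Standardized difference (MSXH minus HFD, in pooled SDs within diets) of the 9 probe sets, from the values as deposited, without MSXH 4 and 6, after quantile normalization and after array centring. Mid1ip1 stayed between 1.97 and 2.31, Thrsp 1424737_at stayed near 0, and both Acaca probe sets and Mlycd lay on the other side of 0 under the scalings of all 20 arrays.

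The genes around malonyl-CoA were read from 6 lists, and limma called none of their members at an adjusted p of 0.05, as it called 0.0% of all genes. Among fatty acid synthesis genes and their transcription factors, 15 of 21 measured had a higher mean in MSXH, where 54.7% of all genes did. The median standardized difference of the list was 0.505. At an unadjusted p under 0.05, 4 were higher and 1 lower, where 6.58% of all genes were higher and 4.31% lower. The ends of that list were both desaturases: Scd1, which makes oleate, at 1.12 (79 of 100 pairs, adjusted p 0.364) and Fads2, which acts on polyunsaturated fatty acids, at -1.1 (22 pairs, adjusted p 0.371). Srebf1, the sterol response factor that drives lipogenic genes, stood at 0.963 (adjusted p 0.437), and Fasn, the synthase that consumes malonyl-CoA, at 0.6 (adjusted p 0.648). Without MSXH 4 and 6 these 4 stood at 1.21, -0.918, 1.03 and 0.389, in the order named, and the median of the list at 0.389. Scd1, Fads2 and Srebf1 kept their sign under both scalings, while Fasn turned to -0.126 and -0.332. The median of the list was -0.161 after quantile normalization and -0.419 after centring, where the median of all genes was -0.551 and -0.661. Since the scalings moved the genes in common, nothing is read from a sign that turned under them, here and in the other lists.

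On the oxidation side, 5 of 13 genes that make or use malonyl-CoA or carry fatty acids into mitochondria had a higher mean in MSXH. Their median was -0.216, and -0.481 without MSXH 4 and 6, -0.447 after quantile normalization and -0.687 after centring. Slc25a20, the carnitine carrier, was lowest at -0.858 (24 of 100 pairs; -0.794 without MSXH 4 and 6). Acsf3, which makes malonyl-CoA inside mitochondria, was highest at 0.922 (0.726 without these arrays), and stood at -0.302 and -0.535 under the scalings. Cpt1a, the liver enzyme that malonyl-CoA inhibits, stood at -0.426 (40 pairs, adjusted p 0.761), and at -0.375 without these arrays. In this list 1 gene was higher and 0 lower at an unadjusted p under 0.05, against 6.58% and 4.31% of all genes. A higher mean in MSXH was found for 54.7% of all genes.

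Of the AMPK subunits and upstream kinases, 6 of 10 were higher, with a median of 0.192 and of 0.252 without MSXH 4 and 6. They ran from the kinase adaptor Strada at -0.314 to the subunit Prkab1 at 1.08, which stood at 1.03 without these arrays and at -0.0649 and -0.117 under the scalings. Of 7 genes reported to bind or turn over the carboxylases, 3 were higher, with a median of -0.219 and of -0.439 without these arrays. They ran from the phosphatase subunit Ppp2cb at -0.848 to the ubiquitin ligase Cop1 at 0.444, which stood at -0.517 and -0.653 under the scalings. Of 8 biotin genes and biotin-dependent carboxylases, 5 were higher, with a median of 0.374 and of 0.378 without these arrays. The biotin transporter Slc5a6 led at 1.32 (82 pairs) and stood at 1.92 without MSXH 4 and 6. Under the scalings it was at -0.523 and -0.648. The HFD SDs of Slc5a6 and Cop1 were 1.66e-06 and 6.98e-06, so small that centring sets their values by construction. The propionyl-CoA carboxylase subunit Pccb was lowest at -0.953. Of 9 thyroid hormone receptors and targets, 6 were higher, with a median of 0.372 and of 0.237 without these arrays. They ran from Klf9 at -0.528 (-0.815 without these arrays) to the receptor Thra at 1.22 (1.04), which stood at -0.389 and -0.584 under the scalings. At an unadjusted p under 0.05, these 4 lists held 1, 0, 1 and 2 genes higher in MSXH, in the order given, and 0 lower. Of all genes, 6.58% were higher and 4.31% lower at that threshold, and 54.7% had a higher mean in MSXH. Each gene named from the 6 lists had an adjusted p of 0.325 or more.

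The 5 genes were picked on the difference between diets, and its standardized form also uses the spread within diets. The partner genes were chosen with earlier results of these data known, so the relations tested below were not chosen blindly. Variation between mice of the same diet was measured as Pearson's r over the 20 mice after each diet's mean was removed. The p-values came from permuting mice within diets. The 5 probe set pairs of a same gene were examined first. The 2 wide Thrsp probe sets followed each other almost exactly, with r = 0.989 and Spearman rho = 0.992 (permutation p 1e-05 for both, the smallest 100000 permutations can give, and adjusted p 5e-05). Within HFD r was 0.988 and within MSXH 0.992, it was 0.99 without MSXH 4 and 6 and 0.988 without the 2 mice farthest from the median. Thrsp probe set 1444166_at followed neither (r = -0.0284 and 0.0356). The Acaca probe sets gave r = -0.238 (adjusted p 0.758) and those of Acacb 0.0258 (adjusted p 0.914), so results for these genes are those of the brighter probe set. Quantile normalization and centring took the Acaca pair to 0.833 and 0.975. Centring takes 1 number per array off every gene, and genes whose own spread is smaller than that number come to vary together by construction.

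Between the 5 genes, permutation tests passed 0 of 10 relations at an adjusted p of 0.05, although 1 was under 0.05 before adjustment. It was that of Thrsp with Mlycd, with r = -0.635 (permutation p 0.00733, adjusted p 0.0733) and rho = -0.484 (permutation p 0.0348, adjusted p 0.174). The relation rested on HFD 2, highest for Thrsp and lowest for Mlycd. Without this mouse r was -0.399, and without the 2 mice farthest from the Thrsp median it was -0.33. It was -0.829 within HFD (adjusted p 0.0288) and -0.157 within MSXH (adjusted p 0.849), a difference between the diets that was not tested. It passed without MSXH 4 and 6 (-0.673, adjusted p 0.0493) and without MSXH 2, 6 or 8 alone, at up to -0.717. The carboxylases Acaca and Acacb gave r = 0.403 (adjusted p 0.378) and rho = 0.511 (adjusted p 0.174), and r turned to -0.488 after quantile normalization and -0.175 after centring. Mid1ip1 and Thrsp, whose proteins pair, gave r = -0.0751 (adjusted p 0.859). Mid1ip1 also stood at 0.134 with Acaca and -0.11 with Acacb.

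The 5 genes were next set against 12 partner genes: the factors Srebf1, Mlxipl and Ppara, the SREBP retention gene Insig2, the lipid genes Acly, Me1, Fasn, Elovl6, Scd1 and Pnpla3, and Cpt1a and the AMPK subunit Prkaa2. Of these 60 relations, 7 passed an adjusted p of 0.05, and 4 of these belonged to Acacb. Acacb was high where Insig2 was high and low where Srebf1, Scd1 and Mlxipl were high. Insig2 encodes a protein that holds back SREBP processing in the endoplasmic reticulum and is a known fasting gene of liver. Its relation with Acacb had r = 0.756 and rho = 0.65 (permutation p 2.1e-04 and 0.00213, adjusted p 0.0126 and 0.0355). It was 0.767 within HFD, 0.81 within MSXH, 0.776 without MSXH 4 and 6 (adjusted p 0.0126) and 0.641 without the 2 farthest mice (adjusted p 0.104). It passed in each of the 20 fits that left out 1 mouse (r from 0.674 to 0.815). The other Insig2 probe sets gave 0.744 and 0.783. After quantile normalization the sign turned for the probe set used (-0.425) and not for the others (0.0842 and 0.368), and after centring it was 0.456 (adjusted p 0.13).

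With Srebf1, Acacb had r = -0.657 and rho = -0.701 (permutation p 0.00224 and 0.00127, adjusted p 0.0393 and 0.0355), and r stayed between -0.618 and -0.741 under every setting. The value was -0.618 within HFD, -0.711 within MSXH and -0.741 without the 2 farthest mice (adjusted p 0.0552). The call was lost without MSXH 4 and 6 (-0.655, adjusted p 0.0576) and without any 1 of HFD 1, 5, 7, 8 and 9 and MSXH 3 and 4 (adjusted p up to 0.068). With Scd1, r was -0.643 and rho -0.62 (permutation p 0.00376 and 0.00581, adjusted p 0.0393 and 0.0498), -0.824 within HFD and -0.397 within MSXH. It was -0.537 after quantile normalization (adjusted p 0.0701), -0.615 without the 2 farthest mice and -0.633 without MSXH 4 and 6 (adjusted p 0.0645), and it passed in 7 of the 20 fits that left out 1 mouse, being lowest in size without HFD 3 (-0.522). With Mlxipl, which encodes the carbohydrate response factor ChREBP, r was -0.638 (permutation p 0.00275, adjusted p 0.0393) but rho only -0.414 (permutation p 0.0764, adjusted p 0.287). That relation fell to -0.372 without the 2 farthest mice and -0.526 without HFD 3, so it rested on those mice. It passed in 10 of the 20 fits that left out 1 mouse and not without MSXH 4 and 6 (-0.643, adjusted p 0.0576), and it was -0.764 within HFD and -0.502 within MSXH. Acacb also gave 0.589 with Fasn (adjusted p 0.0625), which turned to -0.509 after quantile normalization. As a background, 14.5% of all genes had an r of at least 0.5 in size with Acacb, the largest such share of the 5 genes, and 1.13% were at least as close as Insig2. The same share was 4.25% for Srebf1, 4.8% for Scd1 and 5.05% for Mlxipl, so about as close a relation with Acacb was found for many other genes.

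For the other genes, Mid1ip1 passed with Cpt1a and Mlycd with Mlxipl and Ppara. Mid1ip1 was low where Cpt1a was high: r was -0.689 and rho -0.669 (permutation p 0.00142 and 0.00237, adjusted p 0.0393 and 0.0355), -0.655 within HFD and -0.758 within MSXH. It was -0.694 without MSXH 4 and 6 (adjusted p 0.053) and -0.586 without the 2 farthest mice (adjusted p 0.139). The call was lost without any 1 of HFD 8, 9 and 10 and MSXH 3 and 4, with -0.544 without HFD 10. The sign turned under both scalings (0.278 and 0.185), and the other Cpt1a probe sets gave -0.393 and -0.312. Of all genes, 0.132% had an r with Mid1ip1 at least that large in size.

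Mlycd was high where Mlxipl and Ppara, the receptor that drives fatty acid oxidation genes, were high. With Mlxipl, r was 0.616 and rho 0.677 (permutation p 0.00459 and 0.00226, adjusted p 0.0393 and 0.0355), 0.654 within HFD and 0.612 within MSXH. The call with Mlxipl was lost after quantile normalization (0.327, adjusted p 0.271) and after centring (0.404, adjusted p 0.212). With Ppara, r was 0.547 and rho 0.585 (permutation p 0.00439 and 0.00542, adjusted p 0.0393 and 0.0498), 0.564 within HFD and 0.67 within MSXH. After quantile normalization it was 0.529 (adjusted p 0.0701) and after centring 0.903 (adjusted p 0.0037), and the other Ppara probe sets gave 0.595 and 0.748. Centring also took Mlycd with Cpt1a from 0.241 to 0.987 and with Acaca from -0.152 to 0.97, so nothing is read from the centred value. Of all genes, 2.49% had an r with Mlycd at least as large in size as Mlxipl and 5.29% as Ppara. Without the 2 farthest mice the values were 0.566 and 0.518 (adjusted p 0.139 for both), and without MSXH 4 and 6 they were 0.614 and 0.512 (adjusted p 0.0587 and 0.087). The calls held in 9 and 6 of the 20 fits that left out 1 mouse, with r from 0.565 to 0.686 and from 0.48 to 0.599. By Pearson's r, neither Acaca nor Thrsp passed with any partner. For both the closest was Fasn: Acaca gave r = 0.582 (permutation p 0.0109, adjusted p 0.0727) and a rho of 0.657 that did pass (permutation p 0.00315, adjusted p 0.0378), and r was 0.505 without MSXH 4 and 6 (adjusted p 0.188). Thrsp gave r = 0.533 (adjusted p 0.0922), which turned to -0.289 after quantile normalization.

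**Figure D3:**
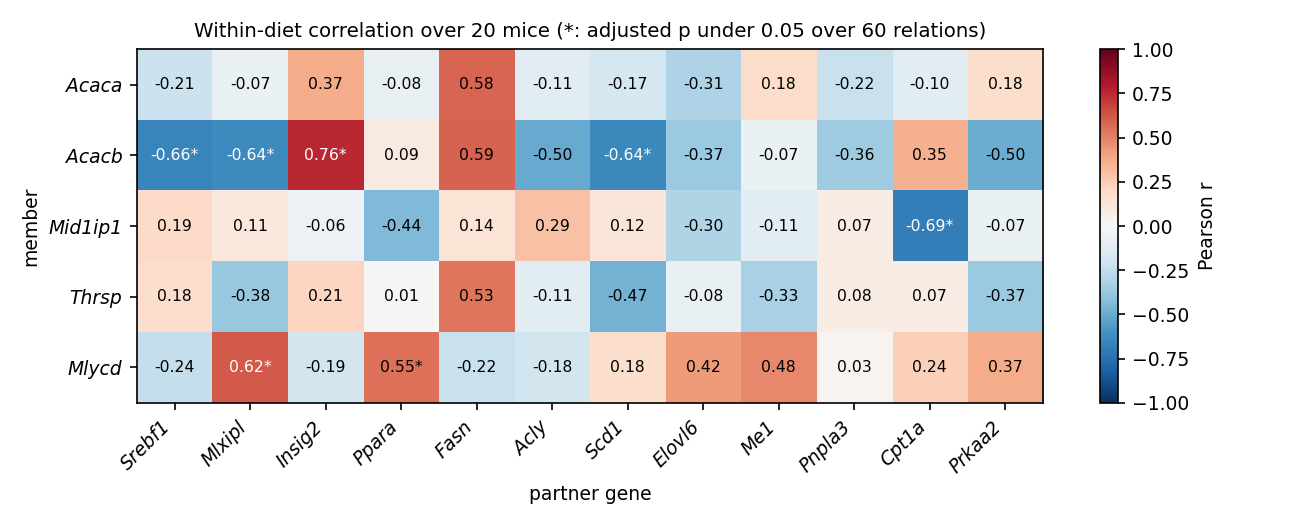
Pearson r between each of the 5 genes (rows) and 12 partner genes (columns) over 20 mice with diet means removed, from -1 (blue) to 1 (red); an asterisk marks an adjusted p under 0.05 over the 60 relations. The 7 marked cells are Acacb with Srebf1, Mlxipl, Insig2 and Scd1, Mid1ip1 with Cpt1a, and Mlycd with Mlxipl and Ppara.

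**Figure D4:**
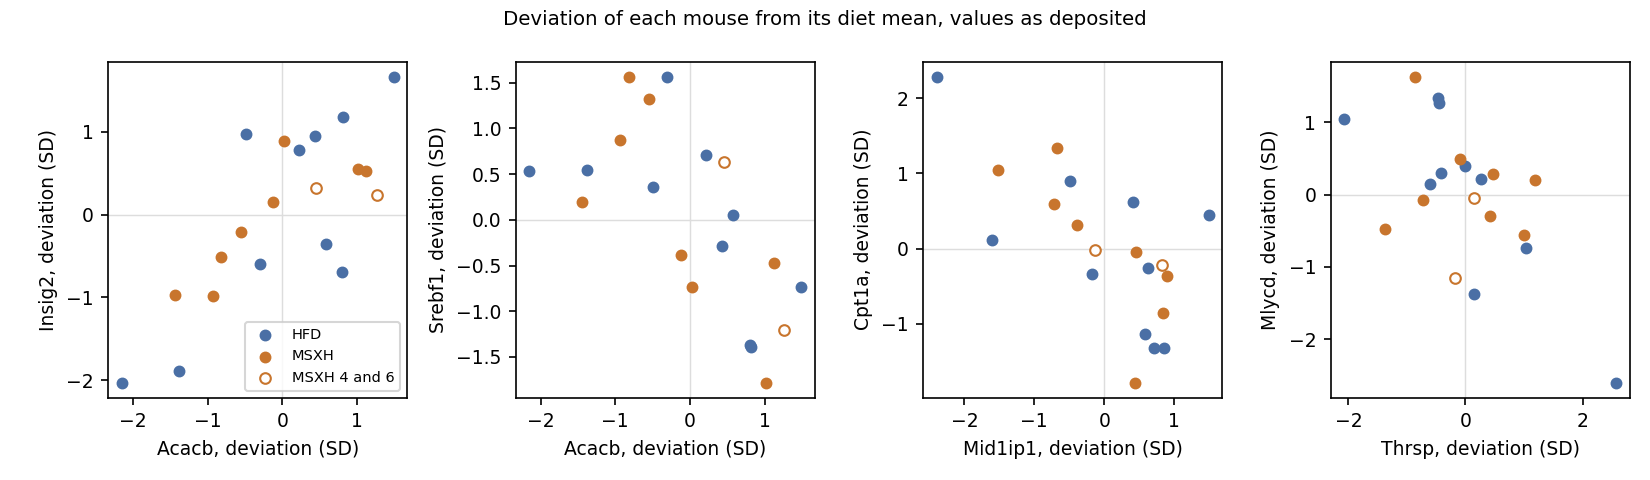
Deviation of each mouse from its diet mean, in SDs, for Acacb with Insig2 and Srebf1, Mid1ip1 with Cpt1a, and Thrsp with Mlycd; HFD in blue, MSXH in orange, MSXH 4 and 6 open. Both diets spread along the first 3 relations, with r = 0.756, -0.657 and -0.689, while the last leans on HFD 2, far to the lower right.

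The genes closest to each of the 5 were named by Spearman's rho over the same 20 mice, among all 18193 genes, as a description without a test. Closest to Acacb was Pnpla2, the adipose triglyceride lipase that starts the breakdown of stored fat, at 0.925 and at 0.905 without MSXH 4 and 6. It was followed by the RNA helicase gene Dhx30 (0.895), the glutaredoxin gene Glrx (0.884), Tmem243 (0.871) and the adhesion receptor gene Adgrl2 (0.868). In all, 26 genes reached a rho of 0.8 with Acacb, against 2 with Mid1ip1. Closest to Mid1ip1 was the lysophospholipid acyltransferase gene Mboat2 (0.892), whose own difference between diets was -0.659, then 8430437L04Rik (0.839), Cpne3 (0.794), Rab7b (0.779) and Kcne4 (0.773). The standardized differences between diets of these 5 genes ran from -0.659 to 0.849, the highest being that of Cpne3, where Mid1ip1 stood at 2.31.

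For Thrsp the closest gene was Sult1b1, a sulfotransferase that acts on thyroid hormones among other substrates, at 0.889. The next were 4930480G23Rik (0.862), Capn10 (0.851), the mitochondrial ribosomal gene Mrpl54 (0.844) and the checkpoint kinase gene Atr (0.835). Mlycd was followed by Fam89a (0.875), Sel1l3 (0.853), Mettl7b (0.847), Rab30 (0.836) and Slc25a42 (0.836), the last a mitochondrial carrier of coenzyme A. Acaca was followed by Safb2 (0.877), the Dicer partner gene Tarbp2 (0.865), the forkhead factor gene Foxj3 (0.859), the splicing factor gene Rbm5 (0.848) and the prenyltransferase subunit gene Fnta (0.839). The 5 lists of 5 genes shared no gene, and none held another of the 5 genes.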

How the data were processed

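Total RNA of 20 livers was labelled with biotin from 200 ng per sample, per the labels' protocols, on Affymetrix 3' arrays. The values the authors deposited are probe set levels taken as log2 from their range, 5.17 to 15.01, since no source used here states the base. How arrays were scanned, background corrected, normalized and summarized is not given in the sources used here. Spread between arrays is compressed, with an SD under 0.001 in 97.6% of probe sets, so a difference understates or distorts a fold by an unknown amount. The values were not changed before the tests. The number of arrays limits the precision.

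Of 45101 probe sets, 34945 had exactly 1 symbol in the platform's gene table and were not controls, 932 had several, and the rest were unnamed here. Of several probe sets of a gene, the one with the highest mean was used, leaving 18193 genes, unfiltered by level. The RefSeq gene table of GRCm38.p6 held the gene IDs of 34741 of these probe sets, and 0 symbols differed. Promoters came from RefSeq, GRCm38.p6, where all 5 genes matched.

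Groups were taken from sample titles. limma 3.58.1 in R 4.3.3 fitted the 2 diets with lmFit and eBayes with trend (residual degrees of freedom 18, prior 0.704). Its two-sided p-values were adjusted by Benjamini-Hochberg over all genes or all probe sets. Correlations used Python 3.11.15, numpy 2.4.6 and two-sided tests of 100000 permutations within diets, with Benjamini-Hochberg over 10, 5 and 60 relations. Both were run on simulated data as a check of the code. For correlations the simulated relations were either absent or stronger than those found with partner genes on the deposited values, and p-values were unadjusted. That check therefore does not cover relations of the sizes reported with partner genes. Figures used matplotlib 3.10.9 and the rank sum test scipy 1.17.1.

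The 5 genes, the lists, the partner genes and the alternatives were chosen with earlier results of these data known. The named genes are the 5 genes with all their probe sets, the highest and lowest member of each list, the partners, and the 5 genes closest to each gene. Alternatives were scaling, leaving out arrays, probe set choice, variance model, rank sum test, a level filter and the replicate number as a block. Added after seeing the data were scaling without MSXH 4 and 6 and other probe sets of the partners.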

Additional observations from a re-analysis of the deposited data

How the results depend on the processing

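With the replicate number as a replicate block, limma called 0 genes and 0 probe sets at an adjusted p of 0.05. At an unadjusted p under 0.05 it counted 1816 genes, against 1982 without the block. For Mid1ip1, the mean difference between mice of the same number was 1.79 SDs of those differences. That is another unit than the pooled SD behind 2.31, so the values cannot be set against each other. Mice that share a number did not deviate together (correlations from -0.265 to 0.165), so no pairs were modelled, and the block changed no call. Leaving out 1 mouse gave 0 to 3 genes at the adjusted threshold and 1667 to 2221 at the unadjusted one, with none of the 5 genes called. The mean of probe sets gave 1 gene and the rank sum test 4. At an unadjusted p, quantile normalization gave 748 genes and 1757 probe sets, centring 210 and 424, and the 9096 genes above the median gene 986. Quantile normalization split them into 17 higher and 731 lower and centring into 20 and 190, against 1197 and 785.

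Acaca moved from 0.783 to -0.406 after quantile normalization and -0.54 after centring, and Mlycd from 0.611 to -0.566 after centring. Mid1ip1 and the brighter Thrsp and Acacb probe sets kept their sign under both scalings and without MSXH 4 and 6, but those of Thrsp and Acacb turned when single mice were left out. Relations that passed between the 5 genes numbered 1 after centring, 1 without MSXH 4 and 6 and 1 within HFD, against 0. Between probe sets of 1 gene they numbered 2 under either scaling, against 1. With partner genes they numbered 11 after quantile normalization, 19 after centring, 1 without MSXH 4 and 6, and 0 within HFD, within MSXH and without the 2 farthest mice, against 7, where the last 4 settings have fewer mice. Acacb with Insig2 turned to -0.425 after quantile normalization, and Mid1ip1 with Cpt1a to 0.278 and, after centring, 0.185; the cause was not tested beyond the shift that centring makes by construction.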
